A study of Mus musculus with 12 samples.

Results

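The clustered protocadherins were measured in DNA from mouse naive and helper T cells, as the level of 5-hydroxymethylcytosine (5hmC) and of 5-methylcytosine (5mC) over each gene. They were taken as every gene on chromosome 18 whose symbol begins with Pcdha, Pcdhb or Pcdhg followed by letters or digits. The rule found 58 of the 37544 gene areas left after repeats of a symbol were dropped: 14 in the alpha cluster, 22 in the beta cluster and 22 in the gamma cluster. The alpha cluster held 12 alternate genes, Pcdha1 to Pcdha12, and the C-type genes Pcdhac1 and Pcdhac2. The beta cluster held Pcdhb1 to Pcdhb22, and the gamma cluster held 12 A-type genes, 7 B-type genes and the 3 C-type genes Pcdhgc3, Pcdhgc4 and Pcdhgc5.

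Clustered protocadherins are adhesion proteins of the cadherin superfamily, best known from neurons, where single cells choose different sets of them and use these as a surface identity. In the alpha and gamma clusters each variable exon carries its own promoter and is spliced to constant exons shared by the whole cluster, whereas the beta genes are separate single-exon genes with no shared constant exons. In neurons the choice of the alternate promoters depends on CTCF and cohesin and is tied to DNA methylation, while the C-type genes are expressed more uniformly. 5hmC is the product that Tet enzymes make by oxidising 5mC.

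The study profiled both cytosine marks in T helper cells by immunoprecipitating denatured genomic DNA with an antibody before sequencing. The libraries used were Th1, Th2, iTreg (induced regulatory T cells) and Th17, each differentiated, and naive T cells as their reference, with 1 library for 5hmC and 1 for 5mC from each. The Th17 cells also gave 1 library with control IgG and 1 of input DNA. The series names CD2(Cre)Tet2(f/f) mice, in which Cre under CD2 control deletes the Tet2 gene in lymphocytes, and their wild-type littermates on a mixed background. The genotype, age and number of animals behind each library were not given in the labels. Each cell type gave 1 library per mark, so a difference between cell types was not replicated and could not be tested, and a fold of at least 2 was used as a rule of size.

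All values are the authors' signal per gene area in build mm9, and their read depth is unknown. The median over all gene areas was 9.9 to 12 in the 5hmC libraries and 0.6 to 0.7 in the 5mC libraries, so the marks stood on different scales and their levels cannot be set against each other directly. In the 5hmC library labelled iTreg the Th17 cytokine genes Il17a and Il17f had 31.3 and 32.8, against 8.8 and 5.3 in the one labelled Th17, so both are called by their labels. Whether these labels name the right cells was not tested, and the comparisons of Th17 5hmC with IgG and input, and the pairing of marks by cell type, rest on them. The 6 T cell genes Cd3d, Cd3e, Cd3g, Cd4, Lck and Cd28 were all called higher in 5hmC than in 5mC by the limma test described below, against 10.1% of all gene areas tested. Of 4 neuronal genes tested none was called higher and Tubb3 was called lower, against 7.62% of all gene areas, too few genes to set against these shares.

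The 3 clusters lie in order on the plus strand of chromosome 18: alpha at chr18:37089938-37347314, beta at chr18:37424651-37681072 and gamma at chr18:37821598-38001526. Each alpha gene area ran from its own variable exon to a shared end within 4 bp, so that the 14 areas were nested and were 43689 to 257373 bp long. The 22 gamma areas were nested in the same way, with ends within 10 bp and lengths of 22328 to 179926 bp. The 22 beta areas did not overlap and were 2319 to 5271 bp long. Neighbouring alpha or gamma genes thus share most of their DNA and are not independent measurements. The deposited values were nevertheless no plain averages from start to end: for 27 of 156 alpha values and 77 of 252 gamma values the unshared stretch would need a negative signal even after allowing for rounding. Which part of an area the authors summarised is not given, and neither is how reads matching several near-identical protocadherin exons were placed, so the value of any single member is uncertain.

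The alpha cluster carried high 5hmC, the beta cluster low 5hmC and the gamma cluster intermediate 5hmC, and the distance between alpha and gamma differed between the cell types. The median over the 14 alpha genes was 30.7 in Th1, 36.2 in Th2, 25.7 in the iTreg library, 26.7 in the Th17 library and 17.3 in naive cells. The median over the 22 beta genes was 5.2 in Th1, 4.75 in Th2, 4.5 in iTreg, 6.7 in Th17 and 3.05 in naive cells. The median over the 22 gamma genes was 17.6 in Th1, 19.4 in Th2, 21.2 in iTreg, 17.5 in Th17 and 20.5 in naive cells. Alpha was therefore above gamma in all 4 differentiated libraries, by a ratio of 1.21 in iTreg to 1.87 in Th2, and below it in naive cells, where the ratio was 0.844. Over the 5 cell types the cluster medians averaged 27.3 ± 6.97 in alpha, 4.84 ± 1.32 in beta and 19.2 ± 1.67 in gamma (SD, n = 5 cell types). The SD was a small part of the mean in gamma and a larger part in alpha and beta.

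All 14 alpha members were above the library median in each of the 5 5hmC libraries, as were all 22 gamma members except Pcdhgc5 in the Th17 library. Of the 22 beta members only 1 to 4 were above it. All gene areas within the length range of the beta genes had a median 5hmC of 9.6 to 12.8, above the beta medians, against 12.9 to 16.5 for areas in the length range of the alpha and gamma genes. The 10 other gene areas interspersed between the first and the last member had medians of 2.95 to 4.8, as low as the beta genes. The 33 gene areas flanking the clusters within 500000 bp had medians of 12.7 to 13.9 in the differentiated libraries and 18.4 in naive cells.

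**Figure D1:**
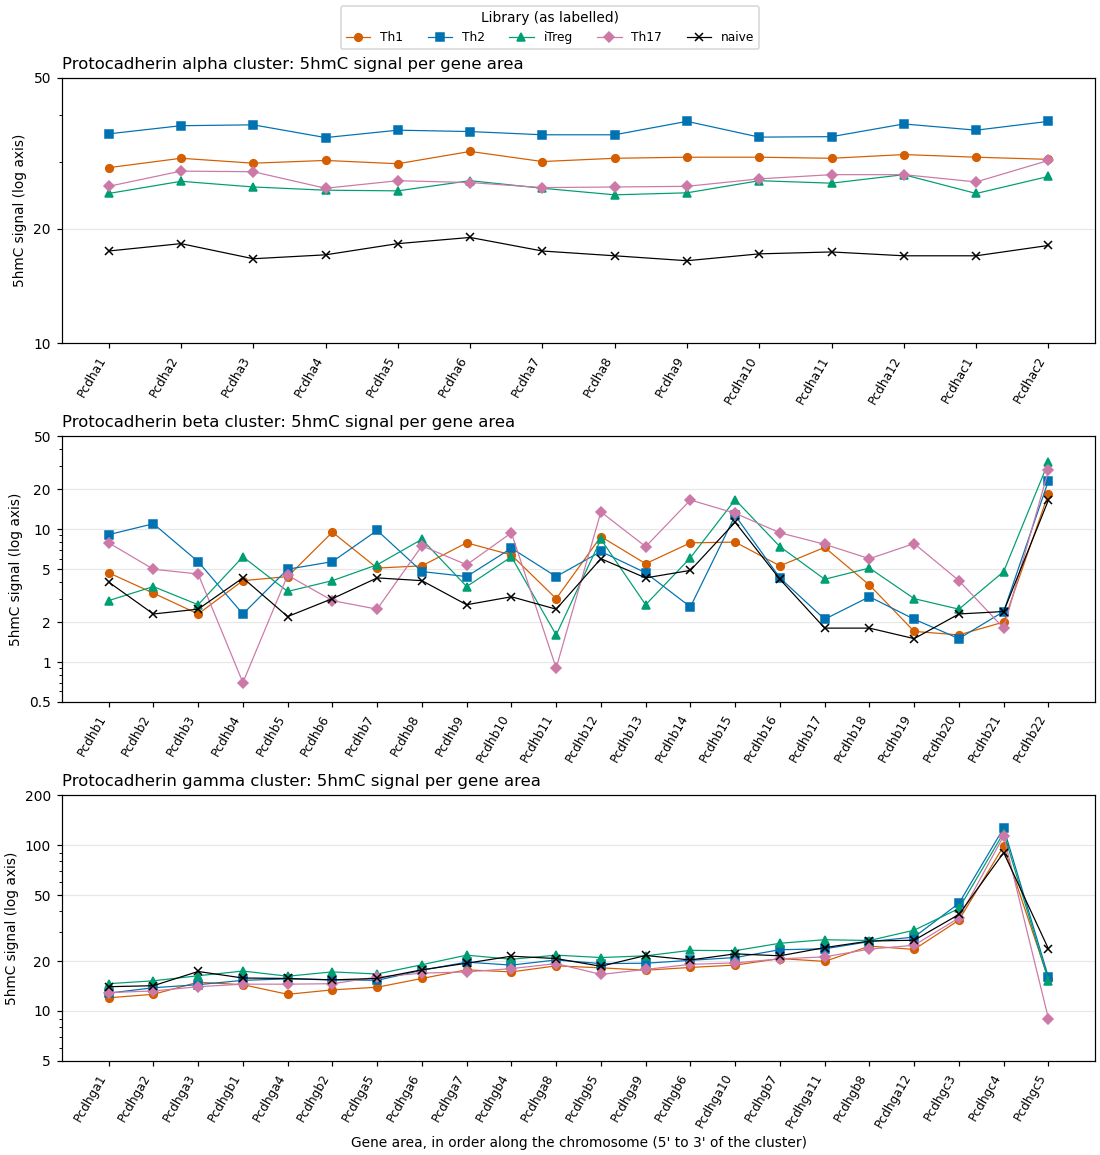
5hmC signal (log axis) of each of the 58 members in the order of their starts along the chromosome, with 1 point per library for Th1, Th2, iTreg, Th17 and naive cells. The naive line lies below the other 4 for every alpha member, the beta lines cross, and the gamma lines run close together up to a peak at Pcdhgc4.

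Within the alpha cluster the members hardly differed. The coefficient of variation over the 14 genes was 2.44% in Th1 to 5.00% in the Th17 library, and the highest member exceeded the lowest by 1.18-fold at most. The C-type gene Pcdhac2, whose neuronal expression is more uniform than that of the alternate genes, had the highest mean 5hmC, with 30.5 in Th1, 38.4 in Th2, 27.5 in iTreg, 30.3 in Th17 and 18.1 in naive cells. Pcdha12, the last alternate gene before the C-type genes, had 31.4, 37.8, 27.8 and 27.8 in Th1, Th2, iTreg and Th17, and 17 in naive cells. Pcdha1, the first gene of the cluster, had the lowest mean, with 29, 35.6, 24.8 and 25.9 in Th1, Th2, iTreg and Th17, and 17.5 in naive cells. In all 3 genes Th2 was the highest and naive the lowest library.

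That order held through the cluster. Naive 5hmC was the lowest of the 5 libraries in 14 of 14 alpha members, against 18.4% of all gene areas past the filter on low signal. Th2 5hmC was the highest in 14 of 14 alpha members, against 15.6% of all gene areas. The 14 nested areas share DNA and are not separate observations of that order. The alternate gene Pcdha4 had 30.3 in Th1, 34.8 in Th2, 25.3 in iTreg, 25.6 in Th17 and 17.1 in naive cells. The other C-type gene, Pcdhac1, had 30.9, 36.4, 24.8 and 26.6 in Th1, Th2, iTreg and Th17, and 17 in naive cells.

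Set against naive cells on the scale of log2(signal + 0.2), the median alpha difference in 5hmC was 0.82 in Th1, 1.02 in Th2, 0.55 in iTreg and 0.63 in Th17. All gene areas had medians of -0.17, -0.14, -0.15 and -0.26 in the same libraries, so alpha lay above naive while the typical gene area lay below it. Averaged over the 4 libraries, which share the naive reference, all 14 alpha members were above 0, from 0.66 at Pcdha6 to 0.86 at Pcdha12, with a median of 0.76. Pcdha6 had 32 in Th1, 36.1 in Th2, 26.8 in iTreg and 26.5 in Th17, against 19 in naive cells. In Th2, 12 of 14 alpha members were at least 2-fold above naive, against 4.9% of all gene areas past the filter. None was so in Th1, iTreg or Th17, where 4.38%, 4.56% and 4.66% of all gene areas were, and the other 2 alpha members in Th2 lay just under the line, at a log2 difference of 0.98 for Pcdha5 and 0.92 for Pcdha6. The counts depended on the settings, since the alpha differences lie close to 2-fold. A pseudocount of 1 left 6 in Th2, against 1128 of 28159 gene areas. Median-ratio scaling gave 14 in Th2, 7 in Th1 and 2 in Th17, against 1931, 1824 and 2645 of 28159 gene areas. No alpha member was at least 2-fold below naive in any library, against 16.1% of all gene areas in Th1, 14.8% in Th2, 14.8% in iTreg and 25.7% in Th17.

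**Figure D2:**
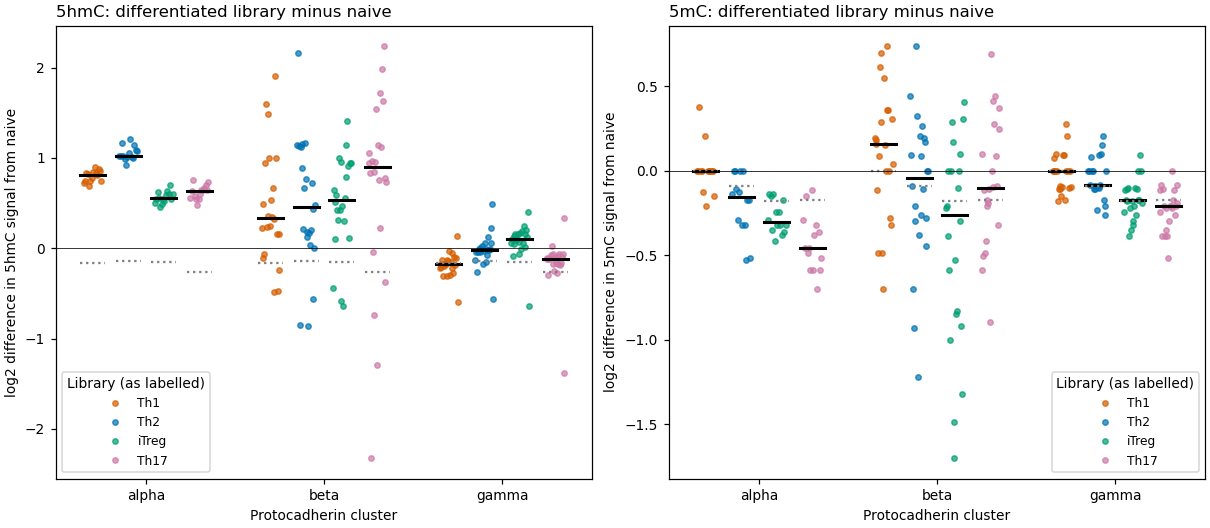
Log2 difference in signal (plus 0.2) of each differentiated library from the naive library in 5hmC (left) and 5mC (right), 1 point per member, with the cluster median as a bar and the median of all gene areas as a dotted line. In 5hmC the alpha values lie above 0 in all 4 libraries, the beta values spread widely on both sides, and most gamma values lie close to 0.

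The beta genes differed from naive less evenly, and from low levels. Their median log2 difference in 5hmC was 0.33 in Th1, 0.46 in Th2, 0.53 in iTreg and 0.89 in Th17. Averaged over the 4 libraries 19 of 22 members were above 0, from -0.68 at Pcdhb4 to 1.31 at Pcdhb17. Without a filter on low signal, 5 of 22 beta members were at least 2-fold above naive in Th1, 6 in Th2, 3 in iTreg and 8 in Th17, against 7.44%, 7.64%, 7.45% and 7.37% of all gene areas. Past this size in Th2 were Pcdhb1, Pcdhb2, Pcdhb3, Pcdhb5, Pcdhb7 and Pcdhb10. In the Th17 library they were Pcdhb2, Pcdhb10, Pcdhb12, Pcdhb14 and Pcdhb16 to Pcdhb19. How far these sets overlap was not set against the overlap over all gene areas. Each set rests on a single library and often on low naive values, such as 2.3 at Pcdhb2 and 1.5 at Pcdhb19. Only 9 of 22 beta members passed the filter, a mean signal of 3.31 over the 10 antibody libraries.

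The last beta gene, Pcdhb22, stood above the others in both marks. It was also raised in the Th17 controls, with 2.7 in IgG and 2.3 in input, against beta medians of 0.4 and 1.6. Its 5hmC was 18.5 in Th1, 23.2 in Th2, 32 in iTreg, 27.7 in Th17 and 16.6 in naive cells. Its 5mC was 3.6, 3.5, 4.7 and 4.2 in Th1, Th2, iTreg and Th17, and 3.5 in naive cells, which placed it at the 99.3rd percentile of all gene areas or higher in each 5mC library. Pcdhb15, with the next highest mean, had 8 in Th1, 12.7 in Th2, 16.7 in iTreg, 13.2 in Th17 and 11.3 in naive cells. Both were highest in the iTreg library, and the naive value was the lowest at Pcdhb22 but not at Pcdhb15.

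The low beta members changed order from library to library. Pcdhb20, with the lowest mean, had 1.6 in Th1, 1.5 in Th2, 2.5 in iTreg, 4.1 in Th17 and 2.3 in naive cells. Pcdhb11 had 3, 4.4, 1.6 and 0.9 in Th1, Th2, iTreg and Th17, and 2.5 in naive cells. Pcdhb4 had 4.1 in Th1, 2.3 in Th2, 6.2 in iTreg, 0.7 in Th17 and 4.3 in naive cells. The Th17 library was thus the highest of the 5 at Pcdhb20 and the lowest at Pcdhb11 and Pcdhb4. Pcdhb17 had 7.3 in Th1, 2.1 in Th2, 4.2 in iTreg, 7.7 in Th17 and 1.8 in naive cells, so that Th2 lay close to naive and the other 3 well above it. Pcdhb10 had 6.4 in Th1, 7.2 in Th2, 6.2 in iTreg and 9.4 in Th17, against 3.1 in naive cells, and its IgG value of 3.8 was the highest of the cluster. Without the filter Pcdhb4 and Pcdhb11 were at least 2-fold below naive in the Th17 library, against 23.6% of all gene areas. No beta member was so in Th1, Th2 or iTreg, against 15.5%, 14.9% and 14.4%.

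The gamma cluster was nearly level between differentiated and naive cells in 5hmC. Its median log2 difference from naive was -0.17 in Th1, -0.02 in Th2, 0.10 in iTreg and -0.11 in Th17. Averaged over the 4 libraries 18 of 22 members were below 0 and 4 above, with a median of -0.05, which turned to 0.15 when each library was scaled by median ratios. Under that scaling the alpha median was 0.96 and the beta median 0.77. The scaling raised the median of all gene areas by 0.19 in Th1, 0.15 in Th2, 0.15 in iTreg and 0.29 in Th17. No gamma member was at least 2-fold above naive in any library, near the 4.38% to 4.9% of all gene areas that were. Pcdhgc5 in Th17 was the only one at least 2-fold below, against 25.7% of all gene areas in that library and 14.8% to 16.1% in the others. The iTreg library was the highest of the 5 in 16 of 22 gamma members, against 13.8% of all gene areas, and Th1 was the lowest in 15 of 22, against 16.2%. Naive was the lowest in 1 of 22 gamma members, Pcdhgc4, against 18.4% of all gene areas past the filter, and in 11 of 22 beta members, against 18.8% without it.

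Along the gamma cluster the 5hmC signal of the nested areas increased from the first gene to the last A-type gene. Pcdhga1, the first, had 12 in Th1, 12.8 in Th2, 14.6 in iTreg, 12.9 in Th17 and 14 in naive cells. Its neighbour Pcdhga2 had 12.6, 13.8, 15.2 and 13.2 in Th1, Th2, iTreg and Th17, and 14.2 in naive cells. Pcdhga12, the last of the A-type genes, had 23.5 in Th1, 27.9 in Th2, 30.7 in iTreg, 24.9 in Th17 and 26.7 in naive cells. The spread between the ends of the row was thus wider than that between the libraries at either end. Over the 19 A-type and B-type genes the Spearman correlation of start position with mean 5hmC was 0.97, and it was 0.94 to 0.97 in the single libraries (n = 19 nested genes that share DNA, a description with no test). The same correlation was 0.32 for mean 5mC, 0.78 for IgG and -0.07 for input. The areas also shorten along the row, so position and length cannot be told apart. Each of them also runs over the C-type genes, among them Pcdhgc4 with its far higher 5hmC. What this shared DNA adds to the increase was not tested.

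Of the C-type gamma genes, at the end of the row, Pcdhgc4 and Pcdhgc3 had the highest 5hmC of the cluster and Pcdhgc5 did not, and they differed from each other in how they stood to naive cells. Pcdhgc4 had 98.9 in Th1, 126.9 in Th2, 118.8 in iTreg and 113.7 in Th17, against 90.2 in naive cells. It lay at the 98.7th percentile of all gene areas in naive cells and between the 99.7th and 99.8th in the differentiated libraries, and its IgG value was 3. Pcdhgc3, just upstream, had 35.3, 44.6, 41.5 and 36.4 in Th1, Th2, iTreg and Th17, against 38.2 in naive cells. Pcdhgc5, just downstream and the shortest area, had 15.6 in Th1, 16 in Th2, 15.2 in iTreg and 9 in Th17, against 23.7 in naive cells. Of these neighbours Pcdhgc4 was lowest in naive cells, Pcdhgc5 highest in naive cells, and at Pcdhgc3 the naive value lay among the differentiated ones. The mean log2 difference from naive was 0.34 at Pcdhgc4, 0.04 at Pcdhgc3 and -0.79 at Pcdhgc5. Those of Pcdhgc4 and Pcdhgc5 were the highest and the lowest of the gamma cluster.

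In 5mC the beta and gamma medians lay above those of all gene areas in each library. The alpha medians, of 0.6 to 0.9, lay above them in Th1, Th2, iTreg and naive cells and equalled that of all gene areas in Th17. The alpha median was 0.9 in Th1, 0.8 in Th2, 0.75 in iTreg, 0.6 in Th17 and 0.9 in naive cells. The beta median was 1.45, 1.3, 1.05 and 1.3 in Th1, Th2, iTreg and Th17, and 1.3 in naive cells. The gamma median was 1.35, 1.3, 1.2 and 1.1 in Th1, Th2, iTreg and Th17, and 1.35 in naive cells. The order of the clusters in 5mC thus differed from that in 5hmC, with alpha lowest in each library. Over the 5 cell types the medians averaged 0.79 ± 0.12 in alpha, 1.28 ± 0.14 in beta and 1.26 ± 0.11 in gamma (SD, n = 5 cell types), with beta and gamma closer than their spread. All 22 gamma members and 18 to 21 of the 22 beta members lay above the median of all gene areas in each 5mC library. So did 6 of the 14 alpha members in Th17 and 10 to 12 in the other libraries.

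Few members differed from naive in 5mC by the rule of size. No member was at least 2-fold above naive in any library, against 2.68% of all gene areas in Th1, 1.84% in Th2, 1.6% in iTreg and 1.81% in Th17. Among the 45 members past the filter, Pcdhb10 was at least 2-fold below naive in Th2 and in iTreg, against 3.81% and 5.54% of all gene areas, and none was in Th1 or Th17, against 2.67% and 4.72%. Pcdhb10 had a 5mC of 0.8 in Th1, 0.4 in Th2, 0.3 in iTreg and 1.1 in Th17, against 1.2 in naive cells. Without the filter 4 of 22 beta members were at least 2-fold below naive in iTreg, against 7.74% of all gene areas: Pcdhb6 at -1, Pcdhb10 at -1.49, Pcdhb11 at -1.70 and Pcdhb20 at -1.32 on the log2 scale. In Th2 Pcdhb10 was still the only one, against 5.69%. Values this small change in steps of 0.1, so that such a fold rests on a few of those steps. The Th17 5mC was the lowest of the 5 libraries in 9 of 14 alpha and 9 of 22 gamma members, against 21.5% of all gene areas past the filter, and in 4 of 22 beta members, against 18.8% without it.

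The mean log2 difference of the 4 differentiated 5mC libraries from naive had a median of -0.23 in alpha, -0.07 in beta and -0.11 in gamma, against -0.11 in all gene areas. With median-ratio scaling the beta and gamma medians turned to 0.06 and 0.02. In alpha the differences ran from -0.40 at Pcdha11 to 0.02 at Pcdha3. Pcdha11 had a 5mC of 1.1 in Th1, 0.7 in Th2, 0.8 in iTreg and 0.6 in Th17, against 1.1 in naive cells. In gamma they ran from -0.31 at Pcdhga8 to 0.07 at Pcdhgb8, and in beta from -0.92 at Pcdhb11 to 0.33 at Pcdhb15. Pcdhga8, an A-type gene, had 1.6, 1.5, 1.4 and 1.2 in Th1, Th2, iTreg and Th17, against 1.8 in naive cells. Pcdhgb8, the last B-type gene, had 1.3, 1.3, 1.1 and 1 in Th1, Th2, iTreg and Th17, against 1.1 in naive cells.

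**Figure D3:**
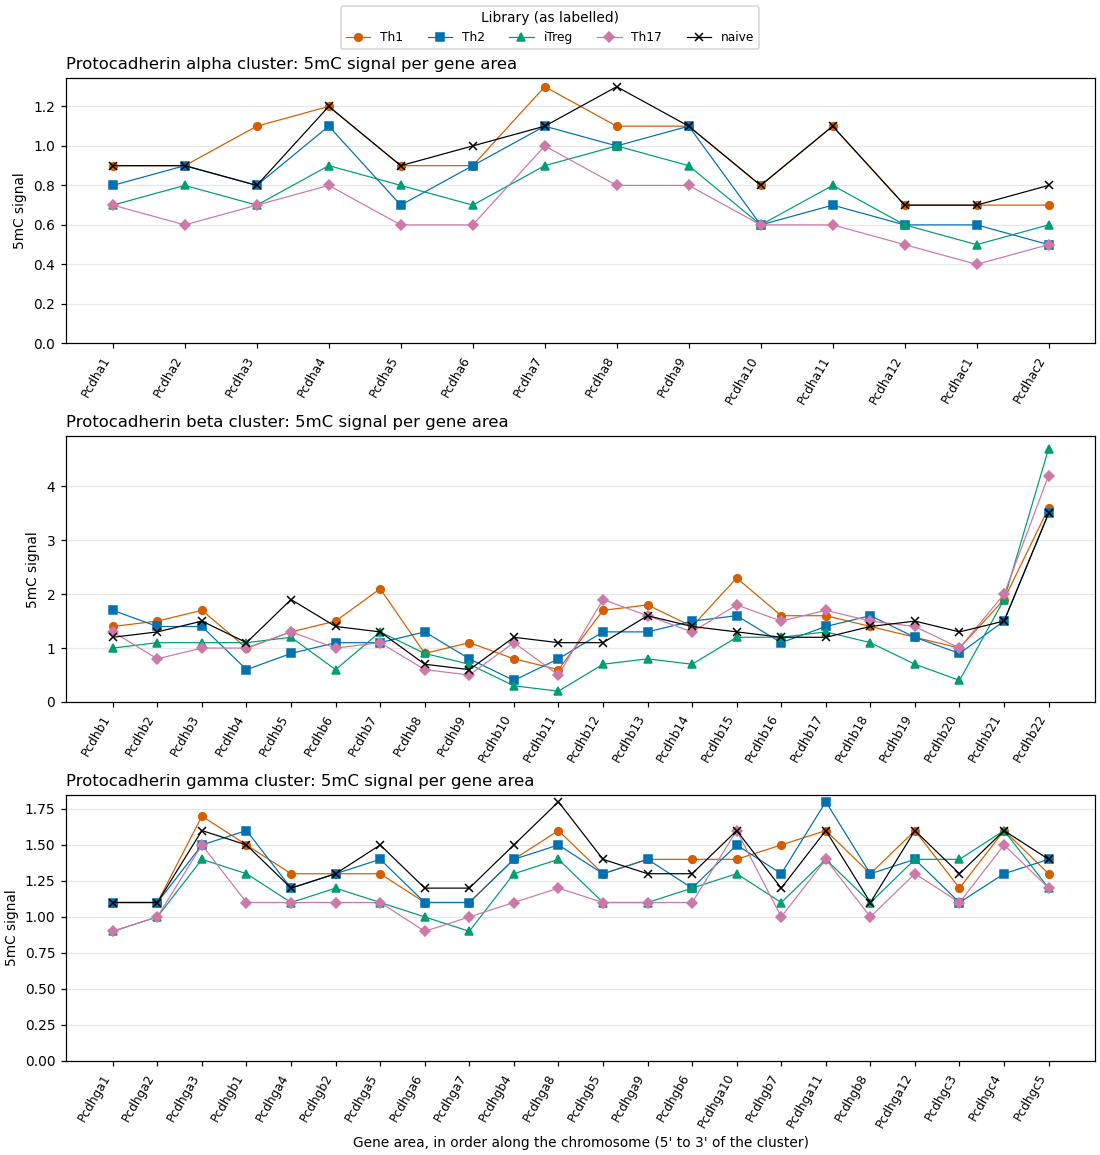
5mC signal of each of the 58 members in the order of their starts, with 1 point per library for Th1, Th2, iTreg, Th17 and naive cells, on axes that start at 0. Values stay between 0.2 and 2.3 except at Pcdhb22, where they are 3.5 to 4.7.

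To compare the marks across the 5 cell types, each library was centred on its median gene area and 5hmC was set against 5mC with limma, with the cell type as a block. Calls required a log2 difference of at least 1 and a p under 0.05 after Benjamini-Hochberg adjustment over the 28159 gene areas tested. A positive difference here means that a gene stood higher among all gene areas in 5hmC than in 5mC, not that it held more 5hmC. Alpha genes stood higher in 5hmC and beta genes lower, while gamma genes divided. Among all gene areas tested 10.1% were called higher and 7.62% lower, and the median was 0.08.

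All 14 alpha members had a positive difference, from 0.52 at Pcdha7 to 1.27 at Pcdhac2, and 4 of the 14 were called higher. These were Pcdhac2 with 1.27 ± 0.24 (SE, limma adjusted p = 0.00375), Pcdhac1 with 1.25 ± 0.22 (adjusted p = 0.0028), Pcdha12 with 1.23 ± 0.22 (adjusted p = 0.00288) and Pcdha10 with 1.09 ± 0.22 (adjusted p = 0.00485). They are the last genes of the row apart from Pcdha11, and had the lowest alpha 5mC means, of 0.58 to 0.68. Without the filter 8 of 14 alpha members were called higher, against 9.61% of all gene areas. Without the naive libraries 10 of 14 were called, a count not set against all gene areas in that fit.

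All 22 beta members had a negative difference in the fit without the filter. Of the 9 that passed the filter all 9 were called lower, from -2.12 ± 0.27 at Pcdhb7 (SE, limma adjusted p = 0.000669) to -1.03 ± 0.35 at Pcdhb10 (adjusted p = 0.0444). Without the filter 20 of 22 were called lower, against 16.1% of all gene areas, while 9.61% were called higher and no beta member was. The lowest was Pcdhb21 with -3.25 ± 0.24 (adjusted p = 4.12e-05), whose 5hmC was 2 in Th1, 2.4 in Th2, 4.8 in iTreg, 1.8 in Th17 and 2.4 in naive cells, with an IgG value of 3.3. The Pcdhb10 call was lost without Th1 (adjusted p = 0.092), without Th17 (0.0893), without naive cells (0.0636) and without the filter (0.0786). The Pcdhb15 call, at -1.09 ± 0.22, was lost without Th1, where the difference was -0.87, without the filter, where it was -0.97, and with a pseudocount of 1, where it was -0.76. That pseudocount also ended the Pcdhb22 call, with -0.79 in place of -1.35.

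In the gamma cluster Pcdhgc4 was the 1 member called, 2.13 ± 0.17 higher in 5hmC (SE, limma adjusted p = 0.000179). The neighbour Pcdhgc3 had 0.94 ± 0.16, under the fold limit, and was called without the filter at 1.06. The lowest gamma member was the A-type gene Pcdhga3 with -0.70 ± 0.15 (adjusted p = 0.00613), also under the fold limit, and the cluster median was -0.17. Pcdhga3 had a 5hmC of 14.9 in Th1, 14.4 in Th2, 16.3 in iTreg, 14 in Th17 and 17.3 in naive cells. The direction of the beta result rested on the centring: on the deposited scales 28089 of 28159 gene areas were called higher in 5hmC and 3 lower, and the 9 beta members tested were among those higher. Without the iTreg and Th17 libraries of both marks, 3 alpha members and 1 gamma member were called higher and 8 beta members lower. These counts were not set against all gene areas in that fit.

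**Figure D4:**
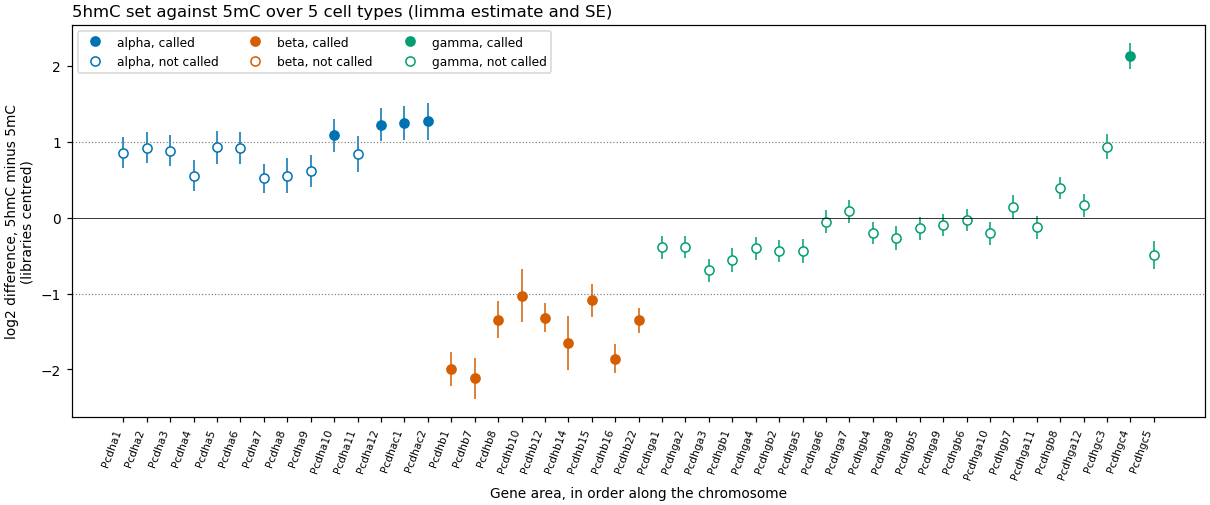
Log2 difference of 5hmC minus 5mC for the 45 members past the filter, from limma on centred libraries with standard errors over 5 cell types, filled where called. Alpha members lie above 0, the 9 beta members tested below 0, and in gamma Pcdhgc4 stands apart at 2.13.

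The Th17 control libraries gave the background of the antibody signal. In the Th17 5hmC library all 14 alpha and all 22 gamma members were at least 2-fold above IgG, against 97.4% of all gene areas past the filter. So were 20 of 22 beta members, against 91.4% of all gene areas without the filter. All 14 alpha and all 22 gamma members were at least 2-fold above input, against 97.5% past the filter, and 17 of 22 beta members were, against 88.3% without it. The shares for IgG were thus close to the background in each cluster. The beta exceptions to IgG were Pcdhb4 and Pcdhb21, which had 0.7 and 1.8 in 5hmC, against 0.4 and 3.3 in IgG. The median log2 difference of Th17 5hmC from IgG was 3.24 in alpha, 2.68 in beta and 3.71 in gamma, against 3.32 in all gene areas. From input it was 3.91 in alpha, 1.92 in beta and 3.10 in gamma, against 2.48 in all gene areas.

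IgG itself was uneven over the clusters. Its median was 2.6 in alpha, 0.4 in beta and 1.2 in gamma, against 0.8 in all gene areas, while that of input was 1.6, 1.6 and 1.8 in the clusters, against 1.7 in all gene areas. IgG thus ordered the clusters as 5hmC in the Th17 library did, and whether this background contributes to the 5hmC order was not tested. The Th17 5mC values were at least 2-fold below input in 10 of 14 alpha and 1 of 22 gamma members, against 60.9% of all gene areas past the filter, and in 4 of 22 beta members, against 61.4% without the filter. The Th17 5mC median was 0.6 in alpha, 1.3 in beta and 1.1 in gamma, against 0.6 in all gene areas. It lay below the input median in each cluster and in all gene areas. It also lay below the IgG median in alpha, in gamma and in all gene areas, but above it in beta. In alpha the IgG median was 2.6, and log2 differences from IgG ran from -2.32 at Pcdhac1 to -1.22 at Pcdha7. What this background means for the 5mC levels and the 5hmC minus 5mC differences of the clusters was not tested.

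**Figure D5:**
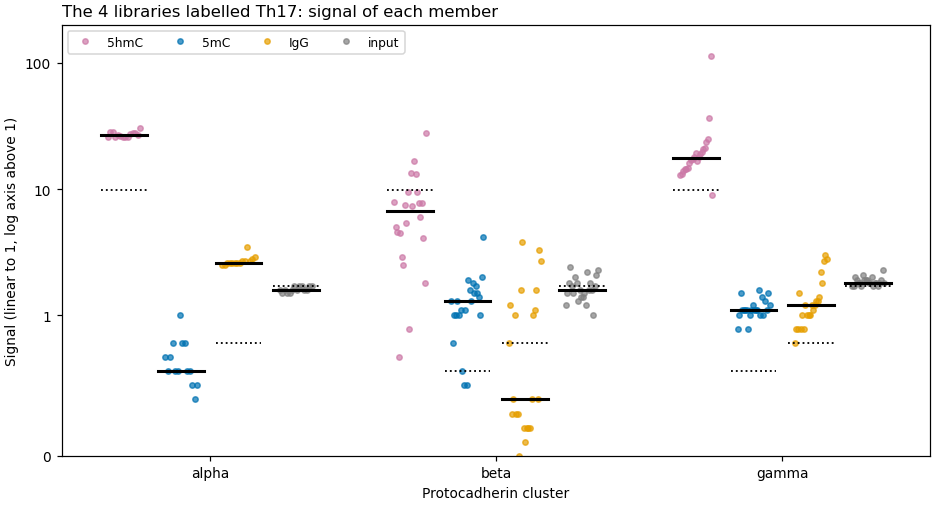
Signal (axis linear up to 1 and log above it) of the alpha, beta and gamma members in the 4 Th17 libraries, 5hmC, 5mC, IgG and input, 1 point per member, with the cluster median as a bar and the median of all gene areas as a dotted line. The alpha median lies above the gamma median and that above the beta median in 5hmC and in IgG, whereas in input the clusters overlap.

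Related genes gave a comparison with the same measure. The 12 non-clustered protocadherins, which are single genes outside the clusters, had a median 5hmC difference from naive of 0.40 over the 4 libraries, with 9 above 0 and 3 below, from -0.34 at Pcdh19 to 0.75 at Pcdh17. Among 36 other cadherin superfamily genes the median was 0.19, with 23 above and 13 below 0. The 33 genes flanking the clusters had a median of -0.52, with 29 of 33 below 0. The 17 genes of factors known from neurons or embryonic cells to regulate the clusters had a median of -0.74, with 16 of 17 below 0, and Ctcf, the gene of the zinc-finger protein that binds the alternate promoters, had -1.23. By limma none of the 9 non-clustered protocadherins tested and none of the 30 flanking genes tested was called in either direction. Among the 31 other cadherin superfamily genes tested 4 were called higher and 1 lower. The background was 10.1% higher and 7.62% lower among all gene areas tested, and 9 genes are too few to set against it. Of the 17 regulators 2 were called higher in 5hmC, close to that background, Ctcf at 1.21 and Dnmt3b at 3.80. Dnmt3b, the methyltransferase linked to promoter choice, had a 5hmC of 308.6 in the Th17 library and an IgG value of 326.1, so its signal did not exceed the control.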

How the data were processed

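The deposited table held 1 value per gene area and library, for 12 libraries of DNA immunoprecipitation sequencing: 5 with a 5hmC antibody, 5 with a 5mC antibody, 1 with IgG and 1 of input. The values the authors deposited are a signal, never negative and rounded to 1 decimal. CASAVA 1.7.0 and build mm9 were used, per the submitters' processing notes. No source used here gives the counting, duplicate removal, scaling between libraries, read depth or the part of each area summarised.

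Of 37752 gene areas, 208 that repeated a symbol were left out, and the area with the highest mean over the antibody libraries was kept for each symbol. Values were analysed as log2(signal + 0.2), where 0.2 is the fifth percentile of signals above 0, and gene areas with a mean under 3.31 (the 25th percentile) over the antibody libraries were left out of calls, which kept 28159. The marks were set against each other in limma 3.58.1 (R 4.3.3) on median-centred libraries with the cell type as a block, which pairs the 2 libraries of each cell type. The spread is therefore that between cell types. The test was also run on simulated data with independent normal noise around the fitted means. The real values are rounded and partly from nested areas, so that run does not check the test in this setting. Differences from naive had no test. Named members were, per cluster, those highest and lowest in mean 5hmC, in difference from naive in each mark and in 5hmC minus 5mC, and the C-type genes. Members and gene lists were chosen with earlier results of these data known. Alternatives were another pseudocount, filter, length minimum, scaling and centring, and leaving out each cell type. All 58 gene IDs matched RefSeq. No sequence is reported here.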

Additional observations from a re-analysis of the deposited data

Results flagged for a closer look

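The 5 libraries of each mark were searched for a sample far from the others at the named members and in the cluster medians. By Dixon's ratio a library stood apart in 3 of 56 such sets of 5. Most named members were picked as extremes of these same data, so no chance rate can be set beside that count. Pcdhb21 had a 5hmC of 4.8 under the iTreg label, while the other libraries had 1.8 to 2.4. Pcdha3 had a 5mC of 1.1 in Th1, with 0.7 to 0.8 in the other 4. Pcdhb4 had a 5mC of 0.6 in Th2, with 1 to 1.1 in the other 4. Each is 1 library, and both 5mC values differ from the next by a few steps of the 0.1 to which the signal was rounded.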

How the results depend on the processing

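Without the cell-type pairing, the limma fit with no replicate block gave 4 alpha members higher, 9 beta members lower and 1 gamma member higher in 5hmC, the same counts as with the block. Leaving out 1 cell type at a time gave 3 to 10 alpha members called higher, with 10 reached without naive cells, and 7 to 9 beta members called lower. Those counts were not set against all gene areas in the same fits. A pseudocount of 1 gave 2 gamma members called higher, also not set against all gene areas in that fit. Without the filter 6035 gene areas were called lower, 8 alpha and 2 gamma members higher and 20 beta members lower. With gene areas of at least 1000 bp alone, 1393 were called lower. Without centring, 28089 gene areas were called higher and 3 lower, with 14 alpha, 9 beta and 22 gamma members higher and 0 beta members lower. Pcdhb10, Pcdhb15 and Pcdhb22 then reversed to 2.83, 2.77 and 2.50, because the marks have different deposited scales. Median-ratio scaling turned the gamma 5hmC difference from naive to 0.15 and the 5mC differences of beta and gamma to 0.060 and 0.019. In Th1 and Th2 alone, chosen after seeing the data, the beta 5mC difference was 0.064 and the alpha 5hmC difference 0.91. With each Th17 library centred, 5hmC minus IgG reversed to -0.092 in alpha and -0.66 in beta, 5hmC minus input to -0.49 in beta, and 5mC minus input to 0.16 in alpha. The mean over gamma members gave 23.7 in 5hmC in place of the median. Restricting alpha or gamma to members with little overlap left none. Median-ratio scaling also gave 1824 gene areas at least 2-fold above and 3003 below naive in Th1 5hmC, in place of 1232 and 4530 as deposited. In 5hmC it gave 1931 and 2994 in place of 1381 and 4170 in Th2, 1863 and 2883 in place of 1283 and 4166 in iTreg, and 2645 and 4751 in place of 1313 and 7223 in Th17. In 5mC it gave 582 and 690 in place of 518 and 1073 in Th2, 611 and 868 in place of 451 and 1560 in iTreg, and 650 and 748 in place of 510 and 1329 in Th17. Depth is unknown, and 5mC values of single members rest on steps of 0.1.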
